A study of Mus musculus with 12 samples.

Results

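The interferon-induced effector genes are the antiviral and antimicrobial genes that a cell switches on after interferon binds its receptor. They were chosen here by symbol: every probe set whose only platform symbol begins with Ifi, Oas, Isg or Gbp, or is Mx1, Mx2, Xaf1, Rsad2, Bst2, Rtp4, Ddx58 or Usp18. The rule took 36 of the 3109 probe sets tested, and these stand for 29 of the 1974 genes named in the table, in 9 subfamilies. The rule uses symbols only, but it was chosen with earlier results of these data known. Members also had to pass the table's filters on level and variability. Of the 29 genes, 23 had 1 probe set and 6 had several.

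RNA came from cultured primary stroma of the bone marrow, an adherent layer able to support blood-forming cells, and was measured on 12 Affymetrix arrays. All mice were C57BL/6 and 3 to 4 months old, and all marrow was cultured for 2 weeks, then given 1500 cGy of radiation and fresh medium. The 3 genotypes were wild type, Crebbp+/- and Ep300+/-, with 4 arrays each that the labels call biological replicates. Crebbp and Ep300 encode related acetyltransferases that act as coactivators of transcription, and which part of either gene was altered is not given in the sources used here, nor how many mice went into a culture. Every culture was irradiated, so no comparison here sets irradiated against unirradiated stroma.

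In a cell, type I interferons are made when sensors detect foreign or misplaced nucleic acid. They act through a receptor and JAK kinases, and the signal ends at the interferon-stimulated response element in promoters. Interferon gamma has a receptor of its own, and its signal ends at gamma-activated sites. Most cells, stromal cells included, carry both kinds of receptor, and a low level of effector expression is normal without infection. CBP, the protein of Crebbp, and p300 are among the coactivators that STAT and IRF proteins recruit.

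The values are log2 levels made by GCRMA, which puts the arrays on 1 scale but does not make different probe sets comparable, so levels are set side by side only within a probe set. Array medians lay between 7.98 and 8.43. The table holds variable probe sets that reached the log2 of 100 on 3 arrays or more, and a gene outside it was not analysed here. A probe set was called when its limma p, adjusted by Benjamini-Hochberg over all 3109 probe sets, was under 0.05. Crebbp itself had a mean log2 level of 8.52 ± 0.058 in wild type, 7.74 ± 0.091 in Crebbp+/- and 8.65 ± 0.12 in Ep300+/- (SD, n = 4 each), and Ep300 has no value here. Of 12 listed markers of marrow stroma, 9 were measured and 0 were called in any of the 3 comparisons. The shares of all probe sets called were 6.18% (Crebbp+/- against wild type), 0% (Ep300+/- against wild type) and 6.4% (between the heterozygotes). With same-numbered arrays paired, as described below, 1, 0 and 3 of the 9 were called. On Ep300+/- array 4 all 9 lay below every wild-type array, as did 32.2% of all probe sets. Cxcl12, the chemokine that defines this stroma, had mean log2 levels of 14.41 in wild type, 14.66 in Crebbp+/- and 14.16 in Ep300+/-. Eif2s3y, a Y-linked gene, was low on Crebbp+/- arrays 1 and 3, at 2.73 and 2.69, and elsewhere lay between 8.41 and 10.84. Crebbp+/- array 3 and Ep300+/- array 3 stand apart in several interferon-induced genes, Ifitm1 among them.

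Against wild type, 25 of the 36 member probe sets rose in Crebbp+/- stroma, 0 fell and 11 did not pass the test. Over all probe sets tested, 5.02% were called higher and 1.16% lower, 6.18% in all; of these calls 156 were higher and 36 lower, and after quantile normalization 120 and 72. The median log2 difference of the members was 1.32, against 0.24 over all probe sets, and all 36 were positive, against 62.4% of all probe sets. In 31 of 36 every Crebbp+/- array lay above every wild-type array, as did 10.4% of all probe sets, and in 0 did they all lie below, as did 8.46%. For each of these 31 permuting the arrays exactly (two-sided) gives p = 0.0286, the floor of a design with 4 against 4. The table's level filter bears on 6 members, Oasl1, Ifi213, Gbp6, Gbp8 and the dimmer or dimmest probe sets of Ddx58 and Rsad2. They reach the log2 of 100 on 3 arrays only when the Crebbp+/- arrays are counted. They are thus in the table through the group where they are high. Their 5 calls against wild type and 4 against Ep300+/- support nothing. All 6 are also among the 31, and their part in any other member count or median for Crebbp+/- supports nothing either. Of the other 30 members 20 were called against wild type and 10 against Ep300+/-. The table also holds only variable probe sets, and a rise on the Crebbp+/- arrays alone adds to that variability. Which of these 30 would be in the table without the Crebbp+/- arrays was not tested, so their calls are not free of selection either. The same holds for the pathway genes and cell type markers below. Counting genes, 20 of 29 had a called probe set, and 19 were called by the probe set of highest mean. RNA of a mixed culture was measured, so more cells of a type that expresses these genes and more RNA per cell cannot be told apart.

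The Ep300+/- arrays gave another picture. Against wild type, 0 of 36 members were called by limma, 0 had an unadjusted p under 0.05, and in 0 did the groups separate, where 1.99% of all probe sets separated upwards and 2.16% downwards. Over the whole table this comparison had 0 calls (0%) and 126 probe sets with an unadjusted p under 0.05. The median log2 difference of the members was 0.22, with 30 of 36 positive, and with quantile normalization 21 of 36. When the heterozygotes were compared directly, 14 of 36 members were higher in Crebbp+/- stroma and 0 lower, against 4.89% of all probe sets called higher and 1.51% lower (6.4% in all), and the median log2 difference was 1.07. The groups separated upwards in 22 of 36, against 9.13% of all probe sets, and downwards in 0, against 4.34%. The 22 include Ifi213, Gbp8 and the dimmer Ddx58 probe set, in the table only through the Crebbp+/- arrays, so their part supports nothing. The comparisons share arrays, so each is given with its own values and they are not independent of each other.

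**Figure D1:**
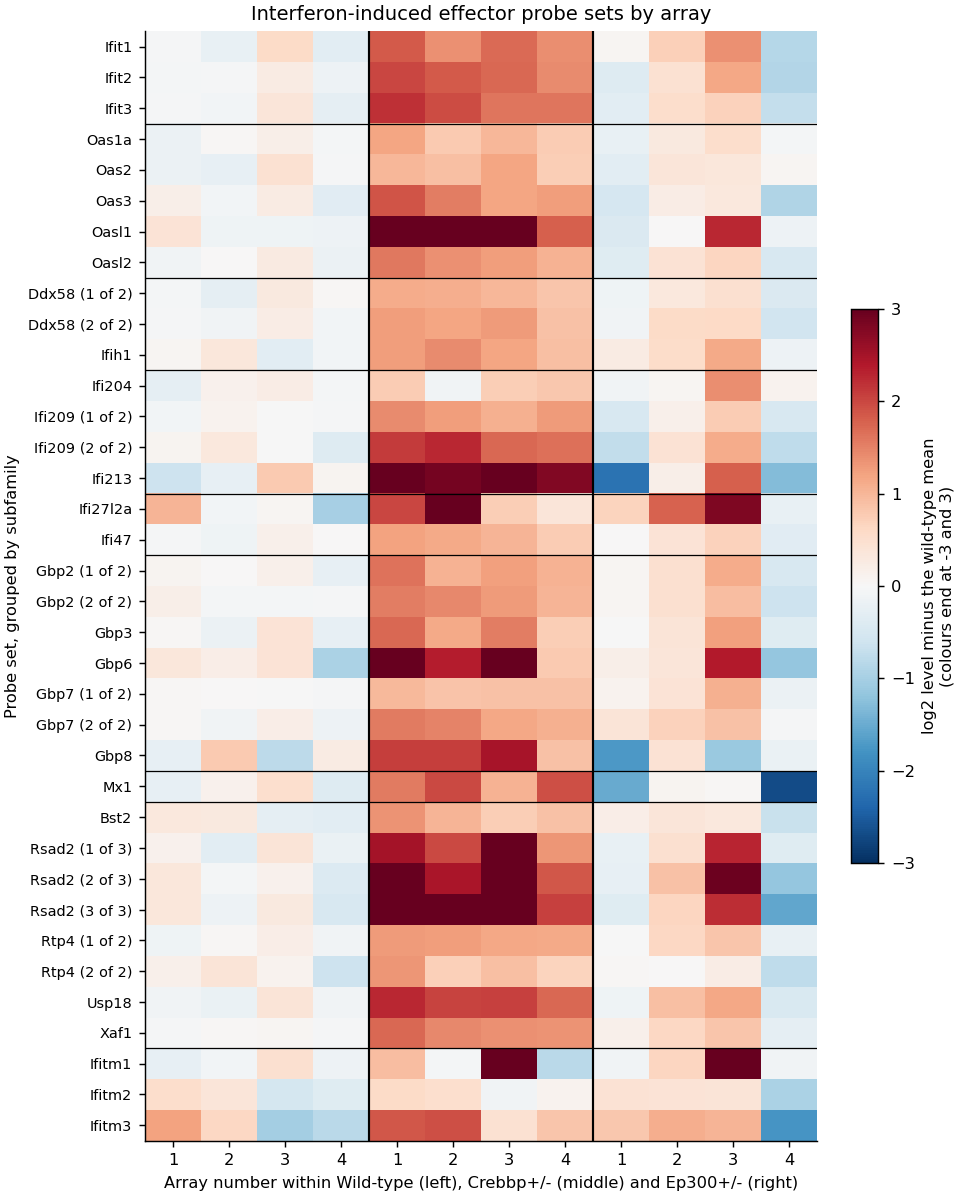
Log2 level of each of the 36 member probe sets (rows, grouped by subfamily) on each of the 12 arrays (columns), as the difference from the mean of the 4 wild-type arrays; red is higher, blue lower, and colours end at -3 and 3. The 4 Crebbp+/- columns are red in nearly all rows, while among the Ep300+/- columns array 3 is mostly red, array 4 mostly blue and the other arrays lie between them.

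The size of the Crebbp+/- count depends on single arrays and on the model. Without wild-type array 1, 2, 3 or 4 the members called numbered 14, 3, 6 and 0, and without Crebbp+/- array 1, 2 or 3 they numbered 0, 0 and 7; all 36 log2 differences were positive in each of the 12 fits that left out 1 array, with medians from 1.23 to 1.44. Ifit3, Usp18 and Xaf1 were called in 9 of the 12. The lowest adjusted p among the members in the fits with 0 calls lay between 0.0501 and 0.0588. When same-numbered arrays were paired through a replicate block, a pairing the labels do not state, 31 were called, among them all 25. The 6 added were Gbp3, Gbp6, the brighter Gbp7 probe set, Mx1, Bst2 and the dimmer Rtp4 probe set. Their limma adjusted p lay between 0.00701 and 0.0369. With Eif2s3y as a covariate 0 were called, although 27 had an unadjusted p under 0.05 and the median was 1.34. On Crebbp+/- arrays 2 and 4, where Eif2s3y stood at 8.41 and 9.22, 31 of 36 members still lay above every wild-type array on both, against 15.8% of all probe sets, and the median difference was 1.27. Leaving out Crebbp+/- arrays 1 and 3 left 0 members called with 28 at an unadjusted p under 0.05. After centring each array on its median the log2 differences had a median of 1.12, and after quantile normalization 1.06, with 20 and 19 members called; Ifitm2 turned negative with quantile normalization.

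Motifs were searched in the promoters before turning to single genes, because the core of the interferon-stimulated response element is the sequence the family is known to share. RefSeq promoter windows on GRCm38.p6, 250 bases before and 50 bases after the annotated start, were found for 21 of the 29 genes. The core, spelled GAAA, any 2 bases and GAAA again, was sought on either strand and was in 14 of the 21 (66.7%), against 78 of 1553 other genes of the table (5.02%) and 1079 of 27025 genes with a window (3.99%). It was in 10 of 16 called members (62.5%) and in 4 of 5 not called (80.0%). The gamma-activated site, spelled TTC, any 3 bases and GAA, was in 5 of 21 (23.8%), against 9.55% of all genes. Both motifs overlap in Bst2 and in Ifitm3. The windows of Ifi209, Ifi47, Ifit2, Ifitm1, Oasl1, Oasl2 and Xaf1 hold no match to the response element core, which says only that these letters are not in this window.

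Shown here are 100 bases of 7 called members, chosen to cover the Ifit, Ifi200, Oas and Gbp subfamilies and Rsad2, and of Bst2 and Ifitm2, which were not called in Crebbp+/- against wild type. Each is printed along its gene's strand, and capitals mark the response element core in either orientation. Positions are chr19:34640759-34640858 (plus strand) for Ifit1, chr19:34583359-34583458 (plus strand) for Ifit3, chr1:173599293-173599392 (minus strand) for Ifi213, chr5:120777680-120777779 (minus strand) for Oas3, chr5:120907526-120907625 (minus strand) for Oas1a, chr3:142620553-142620652 (plus strand) for Gbp2, chr12:26456503-26456602 (minus strand) for Rsad2, chr8:71537533-71537632 (minus strand) for Bst2 and chr7:140955962-140956061 (minus strand) for Ifitm2. In Oas1a and Bst2 the capitals cover 2 overlapping cores.
Ifit1: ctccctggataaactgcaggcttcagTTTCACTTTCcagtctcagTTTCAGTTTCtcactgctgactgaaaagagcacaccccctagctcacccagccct
Ifit3: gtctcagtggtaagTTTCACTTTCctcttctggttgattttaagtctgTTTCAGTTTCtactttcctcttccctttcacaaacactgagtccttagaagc
Ifi213: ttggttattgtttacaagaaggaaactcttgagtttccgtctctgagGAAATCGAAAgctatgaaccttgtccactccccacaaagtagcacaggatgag
Oas3: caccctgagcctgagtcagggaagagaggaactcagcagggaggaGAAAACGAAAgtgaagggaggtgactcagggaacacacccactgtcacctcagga
Oas1a: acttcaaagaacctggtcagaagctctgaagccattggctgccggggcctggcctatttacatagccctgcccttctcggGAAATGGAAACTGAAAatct
Gbp2: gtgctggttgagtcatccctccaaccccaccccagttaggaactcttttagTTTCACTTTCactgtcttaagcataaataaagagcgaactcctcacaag
Rsad2: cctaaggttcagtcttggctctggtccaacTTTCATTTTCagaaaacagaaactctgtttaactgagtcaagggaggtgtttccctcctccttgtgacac
Bst2: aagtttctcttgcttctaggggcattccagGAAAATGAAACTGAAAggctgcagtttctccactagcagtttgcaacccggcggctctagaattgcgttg
Ifitm2: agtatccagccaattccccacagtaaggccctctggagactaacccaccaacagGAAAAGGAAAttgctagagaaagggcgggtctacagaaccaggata

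Ifit1 and Ifit3 each hold 2 separate cores before the start, at -104 to -95 and -85 to -76 in Ifit1 and at -156 to -147 and -122 to -113 in Ifit3, all on the strand opposite to the gene. Gbp3, with cores at -45 to -36 and -39 to -30, has an overlapping pair as in Oas1a and Bst2. In Ddx58 and Ifih1 the match lies after the start, at 2 to 11 and 32 to 41. Counting only the 250 bases before the start left 11 of 21 members (52.4%) and 3.46% of all genes.

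**Figure D2:**
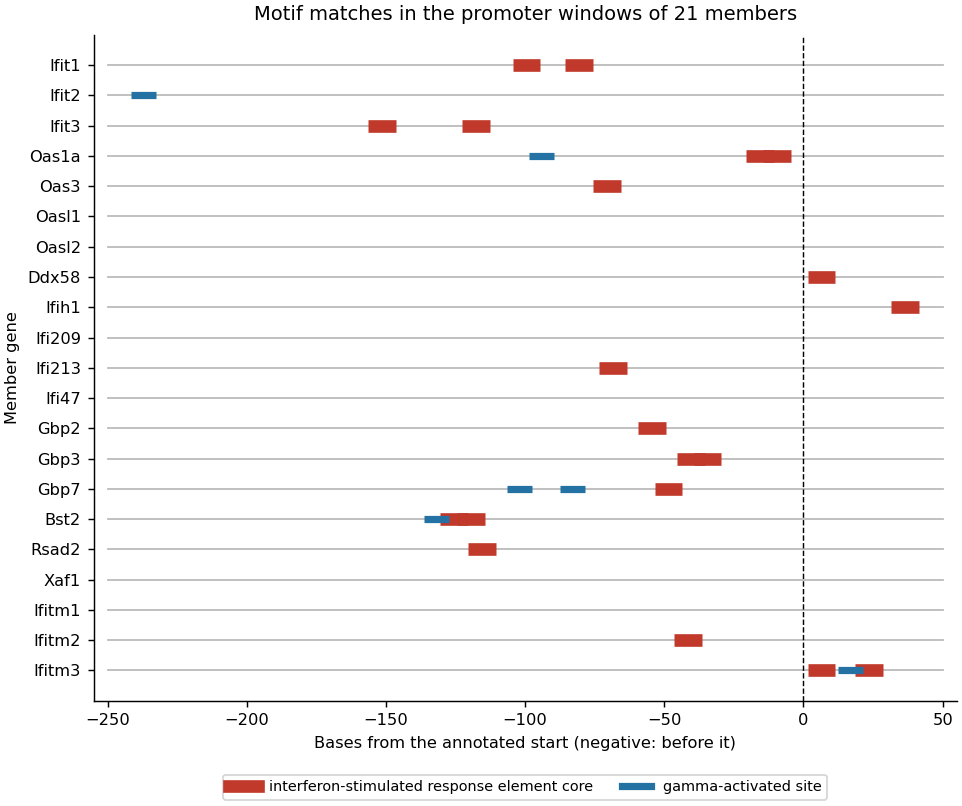
Matches of the interferon-stimulated response element core (red) and the gamma-activated site (blue) in the promoter windows of 21 member genes, by distance in bases from the annotated start. Red marks lie within 156 bases before the start in 11 genes, and 7 rows hold no red mark, among them Oasl1, Xaf1 and Ifitm1.

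The Ifit genes encode repeat proteins that bind foreign RNA, Ifit1 in particular RNA whose cap lacks the host's methyl mark. All 3 rose in Crebbp+/- stroma, against 5.02% of all probe sets, with a median log2 difference of 1.74. Ifit3 had log2 levels of 10.09, 10.04, 10.47 and 9.85 on the wild-type arrays, 12.31, 12.06, 11.71 and 11.72 on the Crebbp+/- arrays and 9.80, 10.63, 10.81 and 9.40 on the Ep300+/- arrays. Every Crebbp+/- array stood above every other array, and the Ep300+/- arrays lay on both sides of wild type, with array 3 highest and array 4 lowest. Ifit3 was 3.58-fold higher in Crebbp+/- than in wild type (log2 difference 1.84, SE 0.33, limma adjusted p = 0.0129) and also higher than in Ep300+/- (log2 difference 1.79, limma adjusted p = 0.0134). Between Ep300+/- and wild type its log2 difference was 0.05, with a 95% interval of -0.66 to 0.76.

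Ifit2 stood at log2 levels of 9.15, 9.16, 9.44 and 9.06 on the wild-type arrays, 11.20, 11.04, 10.92 and 10.63 on the Crebbp+/- arrays and 8.82, 9.65, 10.37 and 8.33 on the Ep300+/- arrays. Crebbp+/- again lay above both other genotypes without overlap, and Ep300+/- array 4 was the lowest of all. The rise against wild type was 3.35-fold (log2 difference 1.74, SE 0.38, limma adjusted p = 0.0226), and Ifit2 was also higher than in Ep300+/- (log2 difference 1.65, limma adjusted p = 0.0253). Ifit1 stood at 8.36, 8.20, 8.98 and 8.09 on the wild-type arrays, 10.24, 9.79, 10.11 and 9.80 on the Crebbp+/- arrays and 8.48, 9.12, 9.78 and 7.55 on the Ep300+/- arrays. Its lowest Crebbp+/- value lay just above Ep300+/- array 3, so the groups met without overlapping. Ifit1 rose against wild type (log2 difference 1.58, SE 0.41, limma adjusted p = 0.0399), but the difference from Ep300+/- missed the threshold (log2 difference 1.25, limma adjusted p = 0.0824). The 3 genes lie together on chromosome 19, Ifit2 and Ifit3 with 0 coding genes between them.

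**Figure D3:**
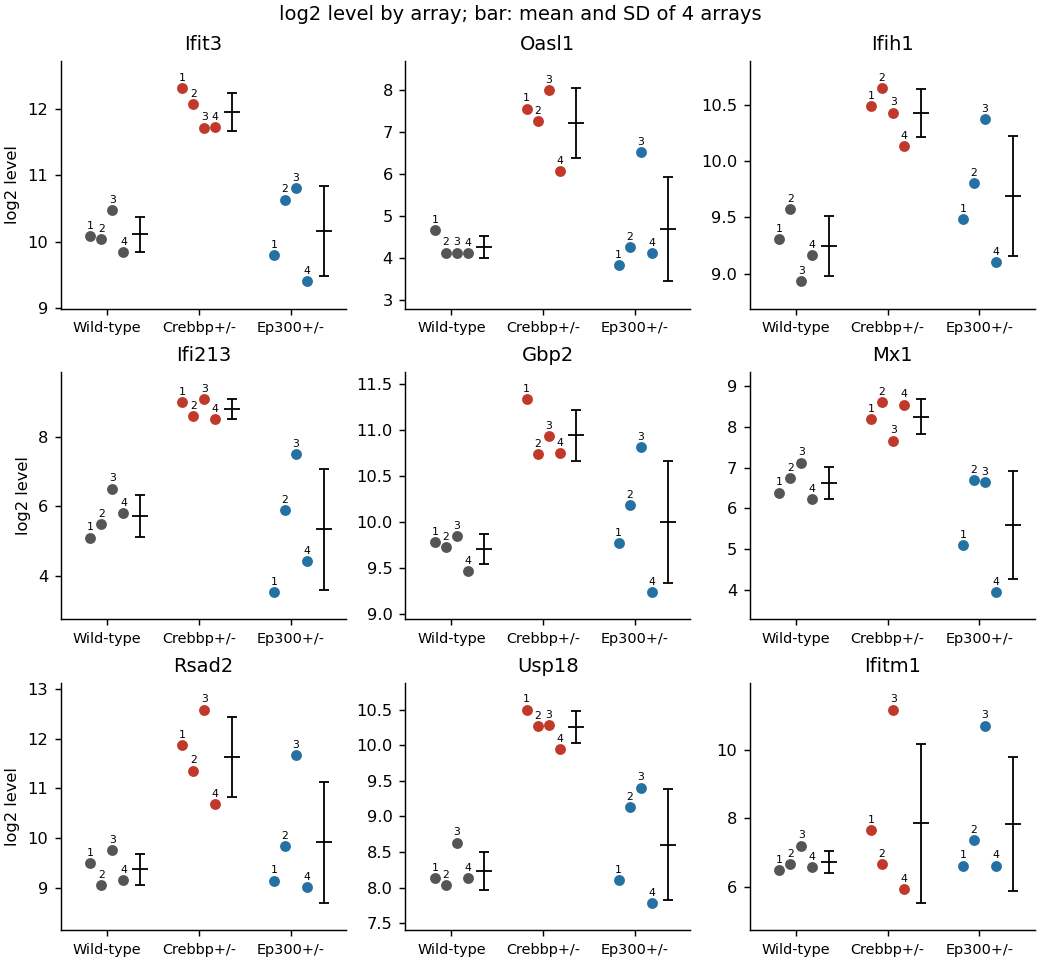
Log2 level of 9 members on each array (points, numbered by array) with the mean and SD of the 4 arrays of a genotype (bars); each gene is shown by its probe set of highest mean and has its own axis, which does not start at 0. Crebbp+/- points stand clear of wild type in every panel but Ifitm1. Ep300+/- points spread most widely in every panel but Ifitm1, where Crebbp+/- points do. Among the Ep300+/- arrays, array 3 is highest in 8 of the 9 panels.

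The Oas genes encode synthetases whose oligoadenylate product activates RNase L, together with Oasl1 and Oasl2, their relatives. All 5 rose in Crebbp+/- stroma, against 5.02% of all probe sets, with a median log2 difference of 1.32. Oas3, Oasl1 and Oasl2 were also called higher than in Ep300+/-, as were 4.89% of all probe sets. Oasl1 is in the table only through the Crebbp+/- arrays, so its part in these counts supports nothing. Oas3, which senses long double-stranded RNA, had log2 levels of 8.11, 7.87, 8.18 and 7.61 on the wild-type arrays, 9.83, 9.48, 9.12 and 9.19 on the Crebbp+/- arrays and 7.45, 8.17, 8.26 and 7.03 on the Ep300+/- arrays. No Crebbp+/- array overlapped another genotype, and 2 Ep300+/- arrays lay below all of wild type. Oas3 was 2.75-fold higher than in wild type (log2 difference 1.46, SE 0.31, limma adjusted p = 0.0214) and higher than in Ep300+/- (log2 difference 1.68, limma adjusted p = 0.0142).

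Oas1a stood at log2 levels of 10.23, 10.43, 10.58 and 10.34 on the wild-type arrays, 11.57, 11.17, 11.40 and 11.15 on the Crebbp+/- arrays and 10.17, 10.69, 10.93 and 10.33 on the Ep300+/- arrays, and the Crebbp+/- arrays lay above the rest by a narrow margin from Ep300+/- array 3. It rose by a 1.9-fold step (log2 difference 0.93, SE 0.24, limma adjusted p = 0.0396). Oas2 stood at 9.10, 9.03, 9.74 and 9.25 on the wild-type arrays, 10.27, 10.18, 10.46 and 10.02 on the Crebbp+/- arrays and 8.96, 9.65, 9.63 and 9.35 on the Ep300+/- arrays. Wild-type array 3 was the highest outside Crebbp+/-, and the Crebbp+/- arrays did not overlap either genotype. Oas2 rose by a similar amount (log2 difference 0.95, SE 0.25, limma adjusted p = 0.0445). Against Ep300+/- neither Oas1a (log2 difference 0.79, limma adjusted p = 0.0652) nor Oas2 (log2 difference 0.83, limma adjusted p = 0.0686) was called.

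Oasl1, known in mice for holding back translation of the Irf7 message, had log2 levels of 4.67, 4.13, 4.13 and 4.12 on the wild-type arrays, 7.55, 7.26, 7.98 and 6.06 on the Crebbp+/- arrays and 3.83, 4.26, 6.51 and 4.11 on the Ep300+/- arrays. Its 4 wild-type values and 3 of its Ep300+/- values are under 5, near the bottom of the scale, so the size of its difference is uncertain, and only Crebbp+/- arrays bring it to the level of the table's filter. Ep300+/- array 3 overlapped the Crebbp+/- range, above Crebbp+/- array 4. Oasl1 was called against wild type (log2 difference 2.95, SE 0.55, limma adjusted p = 0.0148) and against Ep300+/- (log2 difference 2.53, limma adjusted p = 0.0228). Oasl2 stood at 10.19, 10.31, 10.57 and 10.13 on the wild-type arrays, 11.88, 11.67, 11.56 and 11.35 on the Crebbp+/- arrays and 9.94, 10.74, 10.94 and 9.81 on the Ep300+/- arrays. Here the Crebbp+/- arrays lay above both genotypes, and the rise was 2.49-fold against wild type (log2 difference 1.32, SE 0.29, limma adjusted p = 0.0237), with a call against Ep300+/- as well (log2 difference 1.26, limma adjusted p = 0.0258). The 5 genes and Gbp6 and Gbp8 are all on chromosome 5, where Oasl2 neighbours Oasl1 and Oas2 neighbours Oas3.

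Ddx58 and Ifih1 encode RIG-I and MDA5, the cytosolic helicases that detect viral RNA and start interferon production. All 3 of their probe sets rose in Crebbp+/- stroma, against 5.02% of all probe sets, with a median log2 difference of 1.15. Ddx58, by its brighter probe set, had log2 levels of 8.99, 8.79, 9.34 and 9.08 on the wild-type arrays, 10.16, 10.13, 10.05 and 9.88 on the Crebbp+/- arrays and 8.91, 9.36, 9.54 and 8.63 on the Ep300+/- arrays. The Crebbp+/- arrays were close together and above all others. Ddx58 rose against wild type (log2 difference 1.01, SE 0.25, limma adjusted p = 0.0359) and against Ep300+/- (log2 difference 0.95, limma adjusted p = 0.0431). Its other probe set gave 1.15 against wild type (limma adjusted p = 0.0338). That probe set reaches the filter's level on 3 arrays only with Crebbp+/-, so its call supports nothing. Ifih1 stood at 9.31, 9.57, 8.93 and 9.17 on the wild-type arrays, 10.49, 10.65, 10.43 and 10.14 on the Crebbp+/- arrays and 9.49, 9.80, 10.37 and 9.10 on the Ep300+/- arrays. Ep300+/- array 3 reached into the Crebbp+/- range, while wild type did not. Ifih1 rose against wild type (log2 difference 1.18, SE 0.29, limma adjusted p = 0.0331) and was not called against Ep300+/- (log2 difference 0.74, limma adjusted p = 0.139).

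The Ifi200 genes encode proteins with a DNA-binding HIN domain. Of their 4 probe sets 3 rose in Crebbp+/- stroma, against 5.02% of all probe sets. Ifi213 had log2 levels of 5.10, 5.48, 6.51 and 5.81 on the wild-type arrays, 9.02, 8.60, 9.11 and 8.51 on the Crebbp+/- arrays and 3.52, 5.89, 7.52 and 4.42 on the Ep300+/- arrays. The Crebbp+/- arrays spanned a narrow range above all others, whereas the Ep300+/- arrays ran from below to above wild type, 2 of them under 5. Ifi213 had the largest log2 difference from wild type of all 36 members (log2 difference 3.08, SE 0.67, limma adjusted p = 0.0228), with a 95% interval of 1.63 to 4.54, and was also called against Ep300+/- (log2 difference 3.47, limma adjusted p = 0.0157). It too reaches the filter's level on 3 arrays only with Crebbp+/-. The interval overlaps those of Rsad2 and Oasl1, so no order among the 3 is read.

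Ifi209, next to Ifi213 on chromosome 1, stood at log2 levels of 8.95, 9.14, 9.01 and 8.98 on the wild-type arrays, 10.45, 10.26, 10.08 and 10.31 on the Crebbp+/- arrays and 8.54, 9.18, 9.77 and 8.54 on the Ep300+/- arrays by its brighter probe set. Wild type was tight, and the Crebbp+/- arrays lay above both other groups. It rose against wild type (log2 difference 1.25, SE 0.28, limma adjusted p = 0.0261) and against Ep300+/- (log2 difference 1.27, limma adjusted p = 0.0245), and its other probe set did so too, with log2 differences of 1.94 and 1.92 (limma adjusted p = 0.0184 and 0.0184). Ifi204, on the same chromosome, did not pass: its log2 levels were 9.68, 10.09, 10.18 and 9.89 on the wild-type arrays, 10.71, 9.85, 10.69 and 10.77 on the Crebbp+/- arrays and 9.86, 10.01, 11.35 and 10.06 on the Ep300+/- arrays. Crebbp+/- array 2 lay inside the wild-type range and Ep300+/- array 3 was the highest of all (Crebbp+/- against wild type: log2 difference 0.55, SE 0.35, limma adjusted p = 0.327). The genes of this family are near copies of each other in places, and 4 further probe sets carry several Ifi200 symbols; their log2 differences from wild type in Crebbp+/- lay between 0.86 and 1.84 and 0 were called.

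Ifi47, an immunity-related GTPase, had log2 levels of 9.82, 9.72, 9.99 and 9.85 on the wild-type arrays, 11.05, 10.98, 10.87 and 10.61 on the Crebbp+/- arrays and 9.86, 10.26, 10.54 and 9.50 on the Ep300+/- arrays. The 4 Crebbp+/- arrays lay above the rest, the lowest of them close to Ep300+/- array 3. Ifi47 rose against wild type (log2 difference 1.03, SE 0.26, limma adjusted p = 0.0342) and missed the threshold against Ep300+/- (log2 difference 0.84, limma adjusted p = 0.0693). Ifi27l2a ranged from 8.09 to 10.11 in wild type, 9.45 to 12.26 in Crebbp+/- and 8.86 to 11.89 in Ep300+/-. All 3 groups overlapped, and it was not called in Crebbp+/- against wild type (log2 difference 1.56, limma adjusted p = 0.183).

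Guanylate-binding proteins are large GTPases that gather on the vacuoles of intracellular pathogens. Of 7 Gbp probe sets 4 rose in Crebbp+/- stroma, against 5.02% of all probe sets. In all 7 the Crebbp+/- arrays lay above wild type without overlap, as they did in 10.4% of all probe sets. Those of Gbp6 and Gbp8 are in the table only through the Crebbp+/- arrays, so their part in these counts supports nothing. Gbp2, by its brighter probe set, whose x suffix marks probes that can also match other transcripts, had log2 levels of 9.78, 9.73, 9.85 and 9.47 on the wild-type arrays, 11.34, 10.74, 10.94 and 10.76 on the Crebbp+/- arrays and 9.77, 10.19, 10.82 and 9.24 on the Ep300+/- arrays. Ep300+/- array 3 lay among the Crebbp+/- arrays. Gbp2 was 2.36-fold higher than in wild type (log2 difference 1.24, SE 0.32, limma adjusted p = 0.0382), and its other probe set gave 1.31 (limma adjusted p = 0.0284). Against Ep300+/- it was not called (log2 difference 0.94, limma adjusted p = 0.0914).

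Gbp8 stood at log2 levels of 5.29, 6.32, 4.76 and 5.79 on the wild-type arrays, 7.61, 7.61, 8.01 and 6.41 on the Crebbp+/- arrays and 3.81, 5.97, 4.44 and 5.34 on the Ep300+/- arrays. Crebbp+/- array 4 lay only just above wild-type array 2, and low values, 1 in wild type and 2 in Ep300+/- under 5, leave its size uncertain, and only Crebbp+/- arrays bring it to the filter's level. It was called against wild type (log2 difference 1.87, SE 0.50, limma adjusted p = 0.0453) and was the only Gbp probe set called against Ep300+/- (log2 difference 2.52, limma adjusted p = 0.017). The 2 probe sets of Gbp7 differed in their call: the brighter gave 0.90 (limma adjusted p = 0.0644) and the dimmer 1.32 (limma adjusted p = 0.0166). Gbp3 lay just outside the threshold (log2 difference 1.28, limma adjusted p = 0.0504), as did Gbp6 (log2 difference 2.39, limma adjusted p = 0.0629), which had 2 wild-type and 2 Ep300+/- values under 5. With the replicate block Gbp3, Gbp6 and both Gbp7 probe sets were called against wild type, where the call of Gbp6 supports nothing because of the filter. Gbp2, Gbp3 and Gbp7 share chromosome 3.

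Mx1 encodes a nuclear GTPase against influenza-like viruses, of which C57BL/6 mice are known to carry a non-functional allele; its message is still induced. Its log2 levels were 6.38, 6.74, 7.12 and 6.23 on the wild-type arrays, 8.19, 8.61, 7.66 and 8.54 on the Crebbp+/- arrays and 5.10, 6.70, 6.64 and 3.94 on the Ep300+/- arrays. Crebbp+/- lay above all other arrays, and Ep300+/- arrays 1 and 4 lay below all wild-type arrays, array 4 under 5. Mx1 was called against Ep300+/- (log2 difference 2.65, SE 0.53, limma adjusted p = 0.0173) but not against wild type (log2 difference 1.63, limma adjusted p = 0.0862), where the replicate block gave a limma adjusted p of 0.0369. Its log2 difference between Ep300+/- and wild type, -1.02, was the lowest of the 36 members, with a 95% interval of -2.18 to 0.14.

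Of the genes outside a family, Usp18 removes ISG15 from proteins and dampens signalling of the type I interferon receptor. Its log2 levels were 8.14, 8.03, 8.63 and 8.14 on the wild-type arrays, 10.50, 10.27, 10.29 and 9.95 on the Crebbp+/- arrays and 8.10, 9.13, 9.40 and 7.79 on the Ep300+/- arrays. The Crebbp+/- arrays lay above all others, and Ep300+/- arrays 2 and 3 lay above all of wild type while array 4 lay below. Usp18 rose 4.04-fold against wild type (log2 difference 2.02, SE 0.35, limma adjusted p = 0.0129), with the smallest p of the 36 members, and was higher than in Ep300+/- (log2 difference 1.65, limma adjusted p = 0.0216). Xaf1, a cell death protein that opposes XIAP, stood at 9.39, 9.48, 9.48 and 9.39 on the wild-type arrays, 11.16, 10.88, 10.81 and 10.78 on the Crebbp+/- arrays and 9.58, 10.06, 10.28 and 9.18 on the Ep300+/- arrays. Wild type spanned a narrow range, 3 Ep300+/- arrays lay above it and 1 below, and the Crebbp+/- arrays lay above all. Xaf1 rose against wild type (log2 difference 1.47, SE 0.26, limma adjusted p = 0.0129) and against Ep300+/- (log2 difference 1.13, limma adjusted p = 0.0265).

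Rsad2 encodes viperin, which makes a nucleotide that halts viral RNA synthesis. By the brightest of its 3 probe sets it had log2 levels of 9.50, 9.06, 9.76 and 9.16 on the wild-type arrays, 11.88, 11.36, 12.59 and 10.69 on the Crebbp+/- arrays and 9.15, 9.85, 11.67 and 9.02 on the Ep300+/- arrays. Crebbp+/- and wild type did not overlap, but Ep300+/- array 3 lay above Crebbp+/- arrays 2 and 4. Rsad2 rose 4.78-fold against wild type (log2 difference 2.26, SE 0.55, limma adjusted p = 0.0326). The other 2 probe sets gave 2.85 and 3.03 (limma adjusted p = 0.0353 and 0.0203). Against Ep300+/- only the dimmest was called (log2 difference 2.80, limma adjusted p = 0.0253), and the brightest was not (log2 difference 1.71, limma adjusted p = 0.0781). The dimmest, which gave the 3.03, is in the table only through the Crebbp+/- arrays, so its calls support nothing.

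Rtp4, a receptor transport protein, stood at log2 levels of 10.88, 11.05, 11.22 and 10.91 on the wild-type arrays, 12.30, 12.27, 12.18 and 12.15 on the Crebbp+/- arrays and 11.001, 11.64, 11.85 and 10.81 on the Ep300+/- arrays by its brighter probe set. All 4 Crebbp+/- arrays were nearly level with each other and above the rest. It rose against wild type (log2 difference 1.21, SE 0.26, limma adjusted p = 0.0228) and was not called against Ep300+/- (log2 difference 0.90, limma adjusted p = 0.0602). Its other probe set was not called against wild type (log2 difference 0.90, limma adjusted p = 0.0909). Bst2, the tether that holds budding virus at the cell surface, had no call either (log2 difference 0.996, limma adjusted p = 0.063), although its Crebbp+/- arrays lay between 12.10 and 12.69, above the highest wild-type value of 11.67 and the highest Ep300+/- value of 11.71. With the replicate block Bst2 and the dimmer Rtp4 probe set were called against wild type (limma adjusted p = 0.0141 and 0.0169).

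**Figure D4:**
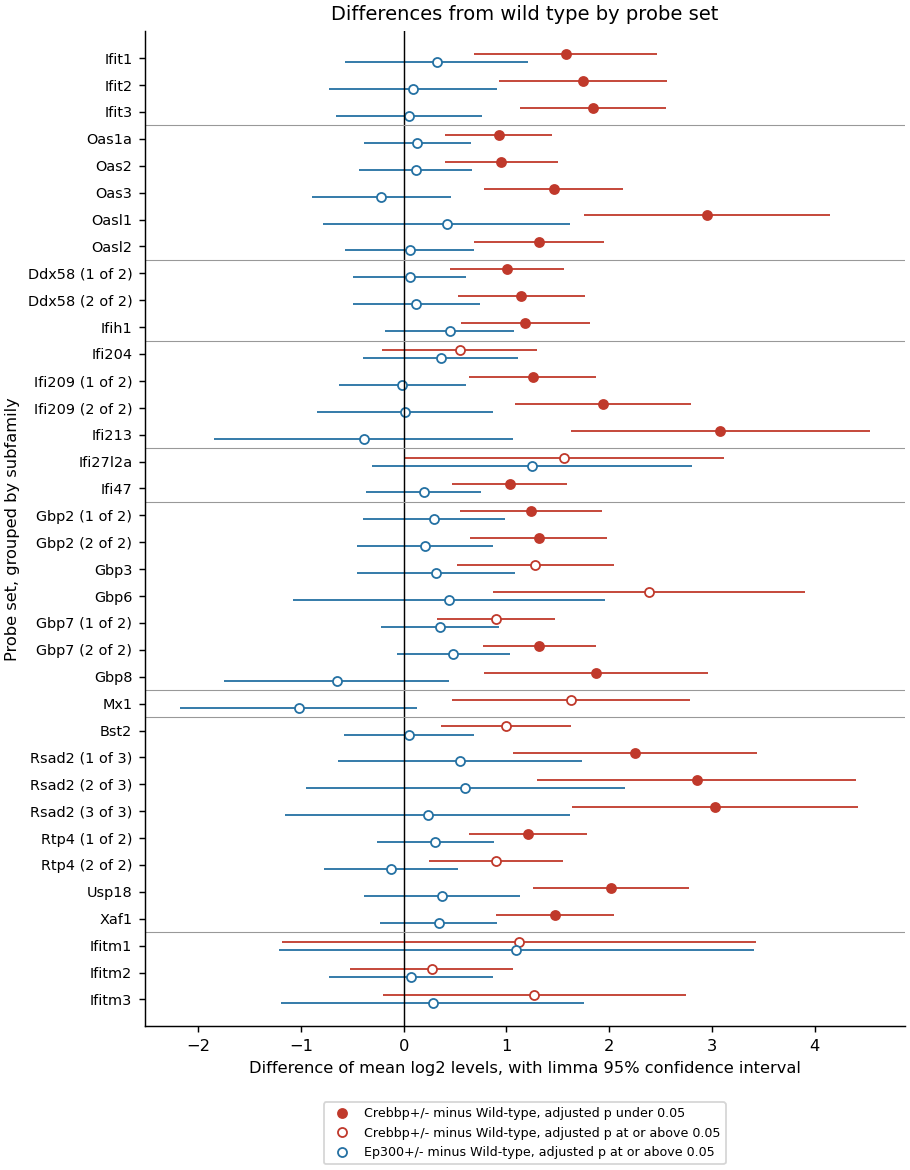
Difference of mean log2 level from wild type for each of the 36 member probe sets, with limma's 95% confidence interval, for Crebbp+/- (red, filled where called) and Ep300+/- (blue); n = 4 arrays per genotype. All 36 red points lie right of 0 and 25 are filled, while every blue interval includes 0.

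The Ifitm genes encode small membrane proteins that block entry of viruses, and they were the subfamily with 0 calls and 0 separated groups. Ifitm3 had log2 levels of 13.60, 13.03, 11.39 and 11.58 on the wild-type arrays, 14.26, 14.34, 12.86 and 13.22 on the Crebbp+/- arrays and 13.20, 13.48, 13.42 and 10.63 on the Ep300+/- arrays. Wild-type arrays 1 and 2 lay among the Crebbp+/- arrays, and Ep300+/- array 4 was lowest (Crebbp+/- against wild type: log2 difference 1.27, limma adjusted p = 0.247). Ifitm2 had log2 levels of 13.23, 13.06, 12.17 and 12.35 on the wild-type arrays, 13.29, 13.21, 12.61 and 12.80 on the Crebbp+/- arrays and 13.15, 13.11, 13.08 and 11.76 on the Ep300+/- arrays. The 3 genotypes overlapped, with Ep300+/- array 4 lowest (Crebbp+/- against wild type: log2 difference 0.27, limma adjusted p = 0.645). Ifitm1 stood at 6.48, 6.65, 7.20 and 6.57 on the wild-type arrays, 7.64, 6.66, 11.17 and 5.92 on the Crebbp+/- arrays and 6.61, 7.37, 10.70 and 6.61 on the Ep300+/- arrays. Array 3 of each heterozygote was far above every other array. On those same 2 arrays Cxcl10, an interferon-induced chemokine, stood at 12.27 and 12.44, and Irf1, a factor induced by interferon gamma, at 14.03 and 13.86. Without both arrays 22 members were called in Crebbp+/- against wild type, 21 of them among the 25, and 15 against Ep300+/-, 12 of them among the 14. Ifitm1, Ifitm2 and Ifitm3 are neighbours on chromosome 7.

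Isg15, the ubiquitin-like modifier, has 1 probe set that the platform also assigns to Gm9706, so it was not counted. Its log2 levels were 10.14, 9.90, 8.98 and 9.03 in wild type, 12.03, 11.84, 11.74 and 11.59 in Crebbp+/- and 10.14, 10.72, 11.57 and 7.73 in Ep300+/-. No Crebbp+/- array overlapped another genotype. The log2 difference from wild type, 2.29, missed the threshold (limma adjusted p = 0.0512).

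The Ep300+/- arrays differed more among themselves than those of the other genotypes. The median SD of the members was 0.67 in Ep300+/- against 0.27 in wild type and 0.28 in Crebbp+/-, whereas over all probe sets it was 0.54, 0.43 and 0.49. Averaged over the 36 members, Ep300+/- arrays 1 to 4 stood at -0.20, 0.48, 1.13 and -0.61 on the log2 scale relative to the wild-type mean. Array 3 lay above every wild-type array in 30 of 36 members, against 26.3% of all probe sets, and array 4 lay below every wild-type array in 28 of 36, against 32.2%. The Crebbp+/- arrays averaged 1.78, 1.55, 1.67 and 1.10 and lay above every wild-type array in 36, 33, 33 and 32 members, against 35.1, 39.5, 33.8 and 20.6% of all probe sets. The spread makes the Ep300+/- mean a mean of unlike arrays: without array 3 its median difference from wild type was -0.03, with 14 of 36 positive, and without array 4 it was 0.46, with 33 positive. For all 36 members limma's 95% interval of the difference includes 0; for Usp18 it ran from -0.39 to 1.13 and for Oas3 from -0.89 to 0.46, intervals that leave room for a change of either sign.

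The direct comparison of the heterozygotes moves with the Ep300+/- arrays. The 14 calls became 0 without Ep300+/- array 1, 5 without array 4 and 29 without array 3, and 0 and 3 without Crebbp+/- arrays 1 and 2. A model of the heterozygotes without the wild-type arrays, which otherwise help to estimate the spread, called 4. With a filter on low mean levels 9 were called. Under the replicate block 29 were called, the 15 added (limma adjusted p from 0.00876 to 0.0296) being Ifit1, Oas1a, Oas2, Ifi47, Gbp3, Gbp6, Bst2, both probe sets of Gbp2 and of Rtp4, the dimmer ones of Gbp7 and Ddx58 and the other 2 of Rsad2, and with Eif2s3y as a covariate 0. Leaving out Crebbp+/- arrays 1 and 3 gave 0, with 19 members at an unadjusted p under 0.05 and a median log2 difference of 1.03.

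Of 99 listed genes of the pathway outside the members, sensors, signalling genes, regulatory factors and other induced genes, 44 were measured. In Crebbp+/- against wild type 18 of the 44 rose and 0 fell, against 5.02% of all probe sets called higher and 1.16% lower. Among the 18 are Trim25, Cmpk2, Trim12c and H2-T24, on which the table's level filter bears. They reach the log2 of 100 on 3 arrays only when the Crebbp+/- arrays are counted, so their calls support nothing. Among the sensing genes 2 of 3 rose: Zbp1, a sensor of left-handed nucleic acid, by a log2 difference of 2.04 (limma adjusted p = 0.0219) and Dhx58, the regulator of the RNA helicases, by 1.03 (limma adjusted p = 0.042). Of 5 receptor and JAK-STAT genes Stat2 rose, by 0.99 (limma adjusted p = 0.0423). Of 3 interferon regulatory factors Irf7, which amplifies type I interferon production, rose by 2.27 (limma adjusted p = 0.0128). Its log2 levels were 8.30, 8.38, 8.79 and 8.11 on the wild-type arrays, 11.15, 10.56, 10.83 and 10.10 on the Crebbp+/- arrays and 7.81, 8.70, 9.25 and 7.68 on the Ep300+/- arrays, and no Crebbp+/- array overlapped another genotype.

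Of 33 other interferon-induced genes 14 rose, against 5.02% of all probe sets, with a median log2 difference of 1.02 over the 33. Ms4a4c, a membrane protein of immune cells, rose by 2.64 (limma adjusted p = 0.0105). Herc6, a ligase related to the ISG15 system, rose by 1.38 (limma adjusted p = 0.0159). Adar, which edits double-stranded RNA, rose by 1.13 (limma adjusted p = 0.0184). In Ep300+/- against wild type 0 of the 44 were called by limma. The 3 of smallest p were Cd274, Irf1 and Apobec3, with log2 differences of 2.05 (limma adjusted p = 0.965), 1.88 (limma adjusted p = 0.965) and -0.52 (limma adjusted p = 0.965). Against Ep300+/-, 13 of the 44 were higher in Crebbp+/-, where 4.89% of all probe sets were called higher. They were all 3 sensing genes, Stat2, Irf7 and 8 of the 33 others. The 8 include Trim12c and H2-T24, in the table only through the Crebbp+/- arrays, so these calls support nothing. With the replicate block the counts were 37, 0 and 33. Without wild-type arrays 1, 2, 3 and 4 the 18 calls became 6, 2, 4 and 0, and 1, 1, 4 and 20 without Crebbp+/- arrays 1 to 4 in turn. With Eif2s3y as a covariate 0 were called. The 13 calls became 0, 3, 9 and 20 without Crebbp+/- arrays 1 to 4 and 0, 9, 24 and 4 without Ep300+/- arrays 1 to 4.

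Markers of other cell types the culture could hold were read beside these genes. Of 14 endothelial markers 12 were measured. In Crebbp+/- against wild type 8 rose, against 5.02% of all probe sets called higher, with a median log2 difference of 2.03. Against Ep300+/- 12 of 12 were called higher, as were 4.89% of all probe sets. Tie1, Kdr, Cldn5, Icam2 and Erg are in the table only through the Crebbp+/- arrays, so their calls support nothing. Relative to the wild-type mean the 12 markers averaged 2.58, 2.22, 2.51 and 0.54 on Crebbp+/- arrays 1 to 4. The average was 0.90 on wild-type array 1 and between -0.94 and 0.12 on the Ep300+/- arrays. The summed linear level of the 12 ranged from 3322 to 5229 in wild type, 5986 to 16360 in Crebbp+/- and 2435 to 3695 in Ep300+/-. On Crebbp+/- array 4 the endothelial average was below that of wild-type array 1. It was above those of wild-type arrays 2 to 4, which lay between -0.34 and -0.27. The effectors averaged 1.10 on Crebbp+/- array 4, with 32 of 36 above every wild-type array, against 20.6% of all probe sets. Both averages there were the lowest of the 4 Crebbp+/- arrays. On Ep300+/- array 3, where the effectors averaged 1.13, the endothelial markers averaged 0.12, each the highest of the 4 Ep300+/- arrays.

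Macrophages were followed by 3 of 16 markers, Cd14, Cd163 and Fcgr1, of which Cd163 rose in Crebbp+/- against wild type (log2 difference 1.18, limma adjusted p = 0.0228). Their summed linear level ranged from 10940 to 15580 in wild type, 22500 to 33380 in Crebbp+/- and 17140 to 34320 in Ep300+/-. Markers of plasmacytoid dendritic cells, known as strong producers of type I interferon, had 0 of 8 measured, and the lists for conventional dendritic, B and plasma, T and NK cells and granulocytes had 0 measured as well. The part of endothelial cells or macrophages in the effector differences was not tested.

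**Figure D5:**
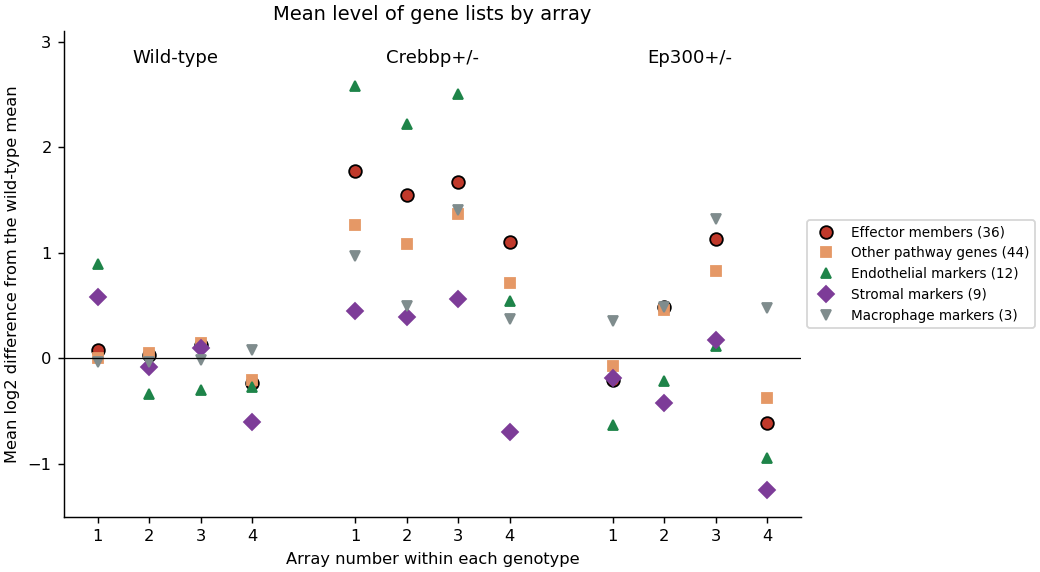
Mean log2 difference from the wild-type mean on each of the 12 arrays for the 36 effector probe sets, the 44 other pathway genes, and markers of endothelium (12), stroma (9) and macrophages (3). Effectors and pathway genes lie above 0 on all 4 Crebbp+/- arrays and on Ep300+/- arrays 2 and 3, while endothelial markers are high on Crebbp+/- arrays 1 to 3 and at 0.54 on array 4.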

How the data were processed

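The members and gene lists were chosen with earlier results of these data known, so no count here is an independent test of them. The authors deposited log2 values from GCRMA, as the submitters' processing notes name it; the sources used here do not give its version. GCRMA models background by probe sequence, brings arrays to 1 scale and joins probes into probe sets, so low values are shrunk and levels compare only within a probe set. The table held 3127 probe sets, of which 18 controls were left out. All had an interquartile range of at least 0.5001. Symbols came from the platform annotation, and only the 2486 probe sets with 1 symbol were named. All 29 member genes matched the mouse gene table by gene ID.

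Differences of log2 means were tested by lmFit and eBayes of limma 3.58.1, run in R 4.3.3, over 12 arrays at once, two-sided, with Benjamini-Hochberg adjustment over 3109 probe sets and a threshold of 0.05. Tested on simulated data for Crebbp+/- against wild type (3109 probe sets), the fit called 79% of true differences of size 2 and 23% of those of size 1 on the log2 scale, and made 7 false calls. The number of arrays limits the precision. Per-array values are given for members called in any comparison, by the probe set of highest mean, and for the brightest member of a subfamily without a call. Pathway genes named are those called or of smallest p. Genes named outside this rule, such as Ifi204, Isg15 and Cxcl10, were chosen after their values were seen.

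Replicate numbers recur in the genotypes. Deviations of same-numbered arrays from their group means correlated with r of 0.518, 0.448, 0.603 and 0.523 between Crebbp+/- and wild type. Between the heterozygotes r was 0.294, 0.338, 0.464 and 0.513. The numbers were then taken to pair those arrays, which is an assumption. The labels do not say what same-numbered arrays share, and correlations of differently numbered arrays are not given here for comparison. Between Ep300+/- and wild type r was 0.5342, 0.3453, 0.0593 and 0.6825 for replicates 1 to 4, so the pairing of replicate 3 is less sure there. The replicate block was still run for that comparison, and 1 probe set was called. Alternatives were quantile normalization, median centring, a filter at a mean log2 level of 7, eBayes with trend and robust settings, 2 genotypes at a time, the replicate block, an Eif2s3y covariate and leaving out each array. Leaving out both heterozygote arrays numbered 3, or Crebbp+/- arrays 1 and 3, was chosen after seeing the data. No batch is given in the sources used here. Promoter windows are RefSeq's on GRCm38.p6.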

Additional observations from a re-analysis of the deposited data

Results flagged for a closer look

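Of 108 groups of 4 arrays (36 members in 3 genotypes), 9 (8.33%) held an array whose gap to its nearest neighbour was a larger share of the group's range than Dixon's 95% critical value for 4 samples, where chance gives about 1 in 20, or 5.4 groups. In wild type, array 1 was high for Gbp2 by its dimmer probe set (8.96, the others from 8.71 to 8.74) and for Oasl1 (4.67, the others from 4.12 to 4.13), and array 4 was low for Gbp6 (3.83, the others from 4.98 to 5.2). In Crebbp+/-, array 2 was low for Ifi204 (9.85, the others from 10.69 to 10.77). In Ep300+/-, array 3 was high for Ifi204 (11.35, the others from 9.86 to 10.06) and Oasl1 (6.51, the others from 3.83 to 4.26). Ep300+/- array 4 was low for Ifitm2 (11.76, the others from 13.08 to 13.15), Ifitm3 (10.63, the others from 13.2 to 13.48) and Bst2 (10.69, the others from 11.54 to 11.71). The values of Gbp6 and Oasl1 are low on the scale.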

How the results depend on the processing

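Counts of calls below are for Crebbp+/- against wild type unless another comparison is named; the cause of each move was not tested. With the replicate block, 812 probe sets (192 without it), 31 members (25) and 37 pathway genes (18) were called; in Ep300+/- against wild type 1 probe set (0), and between the heterozygotes 760 probe sets (199), 29 members (14) and 33 pathway genes (13). With Eif2s3y as a covariate each of these counts was 0. Quantile normalization gave 8 pathway genes and median centring 10. Between the heterozygotes, a fit of the 2 genotypes alone gave 51 probe sets, 4 members and 5 pathway genes, the filter on low values 9 members, and leaving out both arrays numbered 3 gave 122 probe sets. Without Crebbp+/- arrays 1 and 3, 4 probe sets were called against wild type and 2 against Ep300+/-, with 0 members and 0 pathway genes in each. Leaving out 1 array at a time gave 5 to 383 probe sets, 0 to 30 members and 0 to 23 pathway genes against wild type, and 2 to 374, 0 to 29 and 0 to 24 between the heterozygotes; in Ep300+/- against wild type these were 0 to 1, 0 to 0 and 0 to 0. No called difference of a member changed sign under any alternative run; signs of single pathway genes were not followed. Members near the bottom of the scale (Oasl1, Gbp6, Gbp8 and Ifi213) have uncertain sizes.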

Other observations

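The 4 Ep300+/- arrays took the same order, array 3 above 2 above 1 above 4, in 23 of the 36 member probe sets and in 472 of the 3109 probe sets tested. This order was noticed in the data and was not tested. In Crebbp+/- against wild type both genes were called in 4 neighbouring pairs: Ifi213 with Ifi209, Ifit2 with Ifit3, Oasl2 with Oasl1 and Oas2 with Oas3. Of all 29 member genes 20 had a called probe set, so pairs called together are common among the members anyway. Ifi213 and Oasl1 are in the table only through the Crebbp+/- arrays, so the pairs that hold them support nothing. The neighbours Gbp7 and Gbp3 were called together with the replicate block but not in the fit without it. None of Ifitm1, Ifitm2 and Ifitm3 were called in either fit.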
